A study of Homo sapiens with 6 samples.

Results

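The 58 genes described here were close to silent in control MDA-MB-231 cells and were detected in both HMGA2 knockdown lines. Members were chosen by count: at most 3 reads in each of the 2 shNC libraries and at least 10 in each of the 4 shHMGA2 libraries. Of 61806 genes in the table, 58 met these limits, which is 0.420% of the 13808 genes with at least 10 counts in each shHMGA2 library. The difference from shNC chose the genes, so it is described below and not tested.

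RNA was sequenced from MDA-MB-231, a human triple-negative breast cancer cell line, in 6 libraries. The shNC cells carried a control shRNA, and the shHMGA2-1 and shHMGA2-2 cells each carried a different shRNA against HMGA2, with 2 libraries per line. The shRNAs were delivered by lentivirus with puromycin selection, and the methods describe growing stable knockdown cells from a single monoclonal population. An effect of the shRNA and a property of the clone that was expanded therefore cannot be told apart. The library names of the control samples read WT where their titles read shNC, and those of shHMGA2-1 carry SH2. The libraries held 16461178 to 17167293 counts. HMGA2 itself had 2126 and 2161 counts in shNC, compared with 858 and 989 in shHMGA2-1, and 435 and 482 in shHMGA2-2, with no overlap between lines. Nothing in the labels says that the libraries of a line came from separate cultures, so the p-values below measure the spread between libraries, which may be technical.

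HMGA2 is a small chromatin protein that binds the minor groove of AT-rich DNA through AT-hooks and changes how transcription factors assemble on it. It is abundant in embryonic tissue, is low in most adult tissue, and is produced again in many tumours. MDA-MB-231 cells are mesenchymal in character and keep many genes of nerve, blood and differentiated epithelium at very low levels.

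The set was a mixture of genes usually read in different tissues. It held surface proteins of leukocytes (CD33, HLA-DPA1), synaptic and axonal proteins (SEPTIN3, SEPTIN5, LRFN1), G proteins of brain and platelets (GNAZ, DIRAS1), a platelet regulator of Rap1 (RAP1GAP2), skin and epithelial proteins (DMKN, MPZL2, CAMSAP3), ion transporters (SLC12A7, SLC9A2, KCNJ11) and enzymes of lipid, sugar and energy metabolism (LPL, CERS4, OGDHL). The members together had 71 and 68 counts in the shNC libraries. They had 2009 and 1941 counts in shHMGA2-1 and 5509 and 5860 in shHMGA2-2. The gap to shNC follows from the limits, while the sums of both shHMGA2-2 libraries were above those of both shHMGA2-1 libraries.

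**Figure D1:**
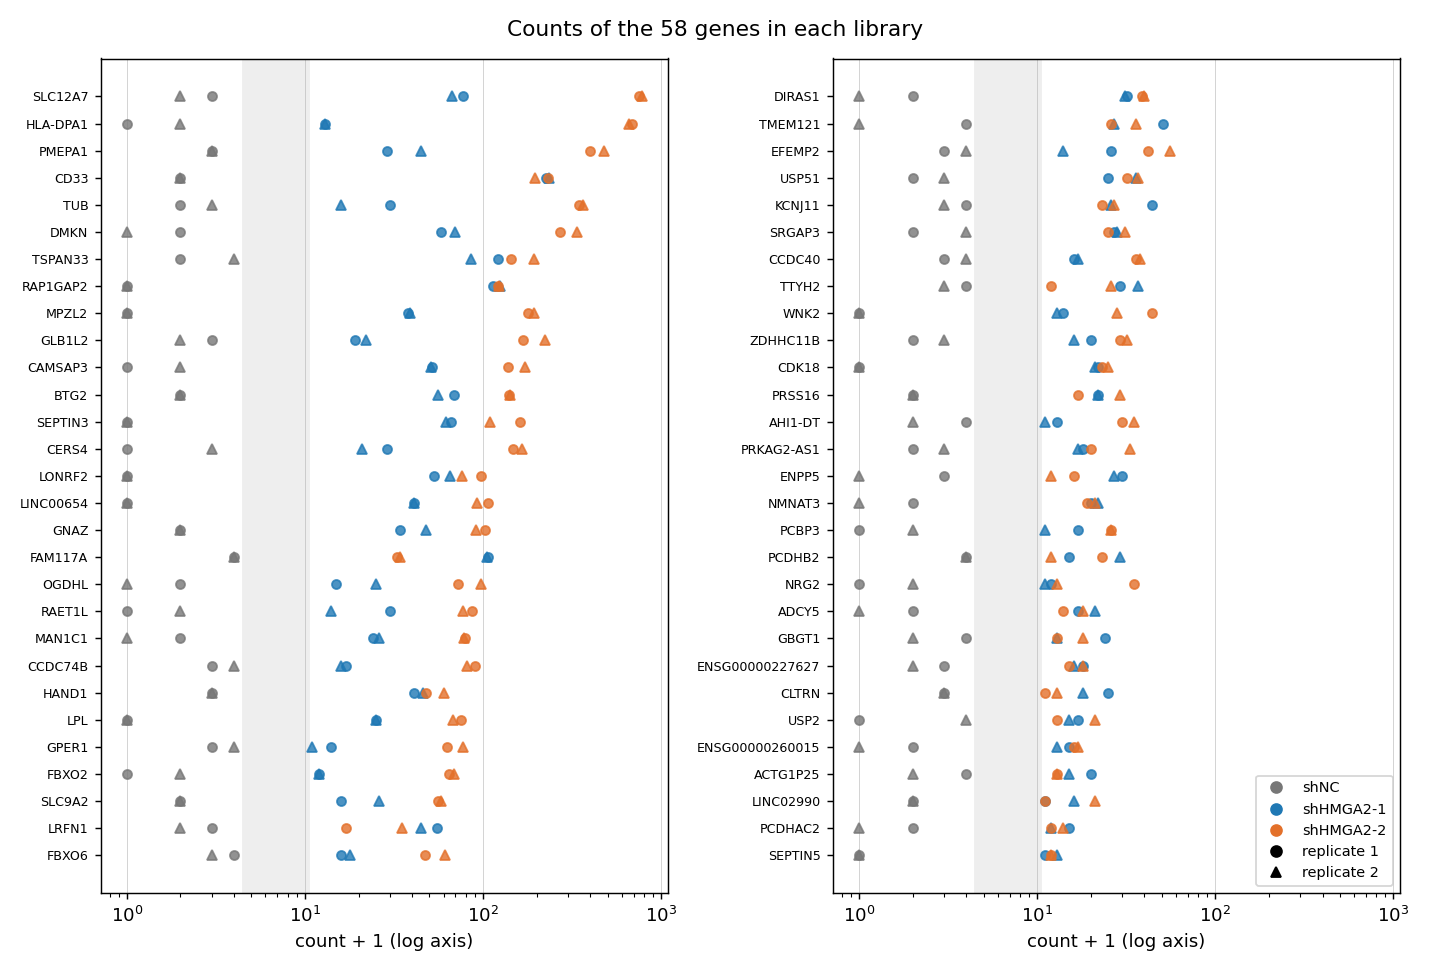
Counts of each of the 58 genes in each library, plotted as count + 1 on a log axis, with genes ordered by mean CPM over the 4 shHMGA2 libraries. Grey points are shNC, blue shHMGA2-1 and orange shHMGA2-2, circles and triangles are replicates 1 and 2, and the grey band is the gap between the limits of 3 and 10 counts. SLC12A7 and HLA-DPA1 reach the highest counts in shHMGA2-2, while CD33 and RAP1GAP2 have similar counts in both knockdown lines.

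The members differed in how silent they were in shNC. Both shNC libraries were at 0 for 9 members: RAP1GAP2, MPZL2, SEPTIN3, LONRF2, LINC00654, LPL, WNK2, CDK18 and SEPTIN5. A count of 0 allows up to 3 counts in a library of this depth, which covers counting error only because the reads carry no molecular identifiers. The shNC counts of 32 members summed to 1 to 3, and those of the other 17 summed to 4 to 6. In bulk libraries, fewer cells that express a gene and less RNA of it per cell cannot be told apart.

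Most members stayed at low levels in the knockdown lines as well. FPKM, the count scaled by exonic length and library total, allows levels to be compared between genes. The mean FPKM over the 4 shHMGA2 libraries had a median of 0.568 over the members, against 4.94 over all genes with at least 10 counts in each of these libraries. It ranged from 0.08 for AHI1-DT to 4.20 for SLC12A7 and was at least 1 for 19 members. For 21 members the mean count was under 25, so that their ratios rest on few reads. The ratio to shNC had a median of 19.6 in shHMGA2-1 and 28.8 in shHMGA2-2, with the genes at 0 taken at the floor of 3 counts.

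The limits cut through a continuous range of counts. Just inside the upper limit were FAM117A and PCDHB2, each with 3 counts in both shNC libraries, and CCDC40 with 2 and 3. Just outside it, DLX4, a homeobox factor, had 4 and 0 counts in shNC, against 60 and 50 in shHMGA2-1 and 39 and 68 in shHMGA2-2. CCDC113 had 0 and 4 counts in shNC, and TMEM86A had 4 and 0. In all, 22 genes missed the limit with a shNC maximum of 4, against 16 members with a maximum of 3. At the lower limit, SEPTIN5 had 10 and 12 counts in shHMGA2-1 and 11 and 11 in shHMGA2-2. LINC02990 had 10 and 15 in shHMGA2-1 and 10 and 20 in shHMGA2-2. CLTRN had 24 and 17 in shHMGA2-1 and 10 and 12 in shHMGA2-2. Just under this limit were ATP2A3, SLC2A10 and NDRG2, each with a lowest count of 9. There were 13 such genes, and 7 members had a lowest count of 10.

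The same limits were applied with the lines exchanged. Only 7 genes had at most 3 counts in both shHMGA2-1 libraries and at least 10 in the other 4, and 71 genes had this pattern for shHMGA2-2. The mirror pattern, at least 10 counts in both shNC libraries and at most 3 in each shHMGA2 library, was found for 16 genes. Presence in a single knockdown line was found for 1 gene in shHMGA2-1 and for 197 genes in shHMGA2-2. These are counts without a test.

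Between the knockdown lines, more of the genes were called higher in shHMGA2-2 than lower. The rule set the same lower limit of 10 counts for each of these 4 libraries, so it used their counts but did not compare the lines. It also kept only genes near silent in shNC, a limit that the backgrounds below did not have. Among all genes tested, 11.7% were called higher than shNC in shHMGA2-2 and 4.89% in shHMGA2-1. The shares below therefore describe the members and are not a test of the set. All 58 members were among the 16110 genes tested with edgeR's quasi-likelihood test. With an adjusted p under 0.05 and at least a 2-fold difference, 26 members (44.8%) were higher in shHMGA2-2, against 7.83% of all genes tested and 4.84% of the 13808 genes held to the same lower limit. Only FAM117A was lower, against 7.27% and 5.67%, and 31 members were not called. The median log2 fold change was 0.74 over the members, -0.0017 over all genes tested and -0.02 over those held to the lower limit, and 42 members had a positive value. By raw counts alone, 36 members were higher in both shHMGA2-2 libraries than in both shHMGA2-1 libraries and 6 were lower, with 16 overlapping. These are 62.1% and 10.3% of the members, against 34.5% and 37.4% of the 13808 genes held to the same lower limit.

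**Figure D2:**
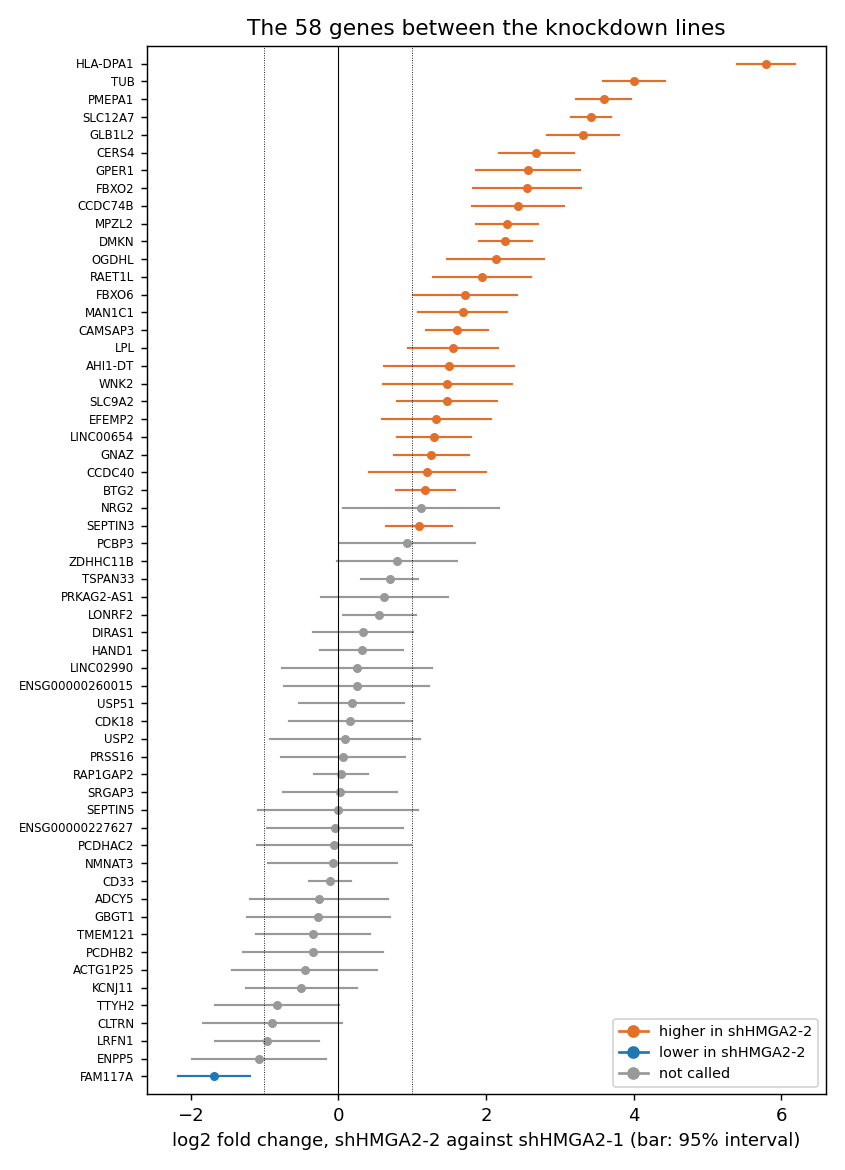
The log2 fold change of shHMGA2-2 against shHMGA2-1 for each of the 58 genes from edgeR, ordered by size, with bars of the 95% interval from the standard error and dotted lines at a 2-fold difference. Orange marks the 26 genes called higher in shHMGA2-2, blue the 1 called lower and grey the 31 not called, and values run from -1.68 for FAM117A to 5.79 for HLA-DPA1.

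Among the 5 immune genes, 2 were higher in shHMGA2-2 and 3 were not called, against 44.8% of all members higher. HLA-DPA1 encodes the alpha chain of HLA-DP, a class II molecule that presents peptides to CD4+ T cells and is usually found on professional antigen-presenting cells. It had 0 and 1 counts in shNC, against 12 and 12 in shHMGA2-1, and 686 and 660 in shHMGA2-2. This was the widest gap between the knockdown lines among the members (log2 fold change 5.79 ± 0.20 SE, edgeR adjusted p = 1.75e-17), and its mean FPKM was 0.12 in shHMGA2-1 and 7.08 in shHMGA2-2. The gene lies at chr6:33064569-33080775 on the minus strand and overlaps HLA-DPB1, the gene of its partner chain, on the other strand. HLA-DPB1 had 0 and 0 counts in shNC, compared with 8 and 3 in shHMGA2-1 and 334 and 346 in shHMGA2-2, and so fell short of the lower limit in shHMGA2-1. The nearest tested gene at lower coordinates, HLA-DOA, a class II modulator of B cells, was at 0 in all 4 shNC and shHMGA2-1 libraries and at 76 and 81 in shHMGA2-2.

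CD33, a sialic acid-binding inhibitory receptor of myeloid cells, differed little between the knockdown lines. It had 1 and 1 counts in shNC, against 225 and 235 in shHMGA2-1 and 230 and 195 in shHMGA2-2. The ratio to shNC was 228 in shHMGA2-1 (95% counting interval 62.7 to 1886) and 218 in shHMGA2-2 (60.1 to 1809). The log2 fold change between the knockdown lines was -0.11 ± 0.15 SE, with an interval of -0.40 to 0.17. TSPAN33, a tetraspanin of B cells and erythroid precursors, had 1 and 3 counts in shNC, against 121 and 85 in shHMGA2-1 and 143 and 192 in shHMGA2-2, a difference of 0.70 ± 0.20 SE that did not reach 2-fold. RAET1L, a stress-induced ligand of the natural killer cell receptor NKG2D, rose by 1.94 from shHMGA2-1 to shHMGA2-2 on the log2 scale. Its relative ULBP2 had 119 and 140 counts in shNC, against 276 and 243 in shHMGA2-1 and 498 and 507 in shHMGA2-2. RAET1G, another relative, had 19 and 14, 40 and 15, and 52 and 72 in the same order of lines. Whether reads were exchanged between these genes is not known here. PRSS16, a serine protease of thymic epithelium, had 16 to 28 counts over the 4 shHMGA2 libraries.

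Leukocyte markers did not rise with these genes as a list. Of 18 markers, 12 had at most 3 counts in every library, and PTPRC, the pan-leukocyte CD45, had 0 to 2. The summed counts of the list were 346 and 293 in shNC, against 102 and 121 in shHMGA2-1 and 63 and 47 in shHMGA2-2. Among the 3 markers tested, LCP1 and LAPTM5 fell in both lines, and CORO1A rose in shHMGA2-1 (log2 fold change 2.57). Of all genes tested, 3.59% were called lower in shHMGA2-1 and 9.65% in shHMGA2-2, and 4.89% were called higher in shHMGA2-1. Of the myeloid markers, LYZ had at most 2 counts in every library. CSF1R had 26 and 6 counts in shNC, against 2 in each shHMGA2-1 library and 1 in each shHMGA2-2 library. CD14 had 0 to 8 counts over the 6 libraries. ITGAM had 0 and 2 counts in shNC, 1 in each shHMGA2-1 library and 16 and 5 in shHMGA2-2. The part of these markers in the levels of the members was not tested.

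Of the 8 neuronal genes, 2 were higher in shHMGA2-2 and 6 were not called, against 44.8% of all members higher. TUB encodes tubby, a phosphoinositide-binding protein of neurons and cilia. It had 1 and 2 counts in shNC, compared with 29 and 15 in shHMGA2-1 and 344 and 365 in shHMGA2-2. The difference between the knockdown lines was 4.00 ± 0.21 SE on the log2 scale (edgeR adjusted p = 9.45e-14). SEPTIN3, a GTP-binding filament protein enriched at presynaptic terminals, was at 0 in both shNC libraries. It had 65 and 61 counts in shHMGA2-1 and 160 and 109 in shHMGA2-2, which is at least 20.8-fold and at least 46.1-fold above the floor. SEPTIN5, another septin of synaptic vesicles, stayed at 10 to 12 counts in all 4 libraries.

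The remaining neuronal members are adhesion and guidance proteins at low counts. LRFN1, a postsynaptic adhesion protein, had 16 to 54 counts over the shHMGA2 libraries and leaned towards shHMGA2-1 (log2 fold change -0.97, edgeR adjusted p = 0.0272, under 2-fold). SRGAP3, which acts in the Slit and Robo guidance pathway, had 24 to 30 counts. The clustered protocadherins PCDHB2 and PCDHAC2, which give neurons a surface identity, had 11 to 28 and 11 to 14 counts. NRG2, a neuregulin that signals through ErbB receptors, had 11 and 10 counts in shHMGA2-1 and 34 and 12 in shHMGA2-2, where the replicates differed by more than the lines.

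A list of neuron markers was read in each line against shNC, where the rise of the members themselves was set by the limits. Of 18 neuron markers, 10 had at most 3 counts in every library, among them DCX, STMN2, NEFL and GAP43 at 0. Of the 6 tested, SYP, SNAP25, SYT1, MAP2 and SCG2 rose in shHMGA2-2 against shNC, and DESeq2 called 4 higher. Among all genes tested, 11.7% were called higher in this line. The log2 fold changes in shHMGA2-1 were 0.54 for SYP, 1.62 for SNAP25 and 0.50 for ENO2. They were -0.92 for SYT1, -0.49 for MAP2 and -0.82 for SCG2. In shHMGA2-1 the test called none of the 6 (3 at an unadjusted p under 0.05, and 0 called by DESeq2). The summed counts were 1542 and 1559 in shNC, against 2234 and 2281 in shHMGA2-1 and 2081 and 2099 in shHMGA2-2, mostly from ENO2. The part of the neuron markers in the levels of the members was not tested.

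The 7 genes of G protein, small GTPase and kinase signalling included 3 that were higher in shHMGA2-2, against 44.8% of all members. RAP1GAP2, a GTPase-activating protein that switches off Rap1 and is best known from platelets, was at 0 in both shNC libraries. It had 113 and 123 counts in shHMGA2-1 and 120 and 122 in shHMGA2-2, at least 38.9-fold and at least 41.4-fold above the floor. Its level in the knockdown lines differed by 0.03 ± 0.19 SE on the log2 scale, with an interval of -0.33 to 0.40. Across the whole set, 9 members had an interval that lay inside a 2-fold difference in either direction: CD33, RAP1GAP2, HAND1, USP51, SRGAP3, CDK18, PRSS16, NMNAT3 and ENSG00000227627. For the other members not called, the intervals left room for a 2-fold difference.

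GNAZ, a G protein alpha subunit of platelets and neurons that inhibits adenylyl cyclase, rose by 1.26 from shHMGA2-1 to shHMGA2-2 on the log2 scale. GPER1, a membrane receptor that responds to oestrogen, had 13 and 10 counts in shHMGA2-1 and 62 and 76 in shHMGA2-2 and rose by 2.57. WNK2, a kinase that controls cation-chloride cotransport, rose by 1.48. DIRAS1, a Ras-related GTPase of brain, had 30 to 39 counts over the shHMGA2 libraries. CDK18, a cyclin-dependent kinase of the PCTAIRE type, had 20 to 24, and ADCY5, the adenylyl cyclase of striatum and heart, had 13 to 20.

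Transport proteins were led by SLC12A7, which had the highest FPKM of all members. SLC12A7 encodes KCC4, a potassium-chloride cotransporter of kidney and inner ear that takes part in cell volume control. It had 2 and 1 counts in shNC, against 76 and 66 in shHMGA2-1 and 752 and 779 in shHMGA2-2. The knockdown lines differed by 3.43 ± 0.14 SE on the log2 scale (edgeR adjusted p = 3.75e-16), and no library of one overlapped the other. SLC9A2, a sodium-proton exchanger of gut epithelium, rose by 1.48. KCNJ11, the pore of the ATP-sensitive potassium channel of pancreatic beta cells, TTYH2, a tweety-family membrane protein, and CLTRN, a collectrin that aids amino acid uptake in kidney, were not called. Their log2 fold changes were all negative, at -0.50, -0.83 and -0.89.

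All 5 genes grouped under epithelium, cilium and extracellular matrix were higher in shHMGA2-2, against 44.8% of all members. The group is small and pools genes of different tissues. SLC9A2 of gut epithelium (1.48) and CLTRN of kidney (-0.89) were placed with the transport proteins. DMKN encodes dermokine, a protein secreted by differentiating keratinocytes. It had 1 and 0 counts in shNC, against 57 and 69 in shHMGA2-1 and 271 and 337 in shHMGA2-2, a rise of 2.26 ± 0.18 SE between the knockdown lines. MPZL2, a homophilic adhesion protein of epithelia and thymus, was at 0 in shNC and had 37 and 38 counts in shHMGA2-1 and 177 and 191 in shHMGA2-2. CAMSAP3, which anchors microtubule minus ends in epithelial cells, had 0 and 1 counts in shNC, compared with 51 and 50 in shHMGA2-1 and 137 and 172 in shHMGA2-2.

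Their log2 fold changes between the knockdown lines were 2.29 for MPZL2 and 1.61 for CAMSAP3. EFEMP2, a fibulin needed for elastic fibres, rose by 1.33. CCDC40, which is needed to assemble motile cilia, had 15 and 16 counts in shHMGA2-1 and 35 and 37 in shHMGA2-2. Its rise of 1.21 passed the test with all libraries (edgeR adjusted p = 0.0152) and did not pass it in 4 of the alternatives. In the list of 10 epithelial markers, CDH1, the epithelial cadherin, had at most 4 counts in any library. Of 6 epithelial markers tested against shNC, CLDN4 fell in both lines, and in shHMGA2-2 KRT8 and CLDN7 rose and KRT19 fell. Between the knockdown lines, KRT8 was called higher in shHMGA2-2 (log2 fold change 1.16), while EPCAM (-1.09) and KRT19 (-1.81) were called lower. The other tested markers were not called between the lines. EPCAM had 146 and 127 counts in shNC, against 274 and 302 in shHMGA2-1 and 137 and 133 in shHMGA2-2.

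Growth control and transcription were represented by 3 genes. PMEPA1, a membrane protein that is induced by TGF-β and restrains its signalling, had 2 and 2 counts in shNC, against 28 and 44 in shHMGA2-1 and 397 and 477 in shHMGA2-2. The knockdown lines differed by 3.59 ± 0.19 SE (edgeR adjusted p = 6.71e-14). BTG2, an antiproliferative gene induced by p53 that acts on mRNA deadenylation, had 1 and 1 counts in shNC, against 68 and 55 in shHMGA2-1 and 139 and 140 in shHMGA2-2, a difference of 1.18 ± 0.21 SE. HAND1, a helix-loop-helix factor of heart and trophoblast, had 40 to 59 counts over the shHMGA2 libraries and was not called.

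Of the 8 enzymes of lipid, sugar and energy metabolism, 5 were higher in shHMGA2-2, against 44.8% of all members. LPL, the lipase that releases fatty acids from circulating triglycerides and is typical of fat and muscle, was at 0 in shNC. It had 24 and 24 counts in shHMGA2-1 and 74 and 67 in shHMGA2-2, at least 7.92-fold and at least 24.1-fold above the floor. CERS4, a ceramide synthase of skin and heart, had 0 and 2 counts in shNC, compared with 28 and 20 in shHMGA2-1 and 146 and 164 in shHMGA2-2. GLB1L2, a beta-galactosidase-like protein, had 2 and 1 counts in shNC, against 18 and 21 in shHMGA2-1 and 167 and 223 in shHMGA2-2.

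CERS4 and GLB1L2 thereby rose by 2.68 and 3.31 on the log2 scale between the knockdown lines. OGDHL, a brain form of the oxoglutarate dehydrogenase subunit, rose by 2.13, and MAN1C1, a Golgi mannosidase that trims N-glycans, rose by 1.68. ENPP5, a membrane phosphodiesterase-like protein, NMNAT3, an NAD-making enzyme of mitochondria, and GBGT1, a glycosyltransferase of Forssman-type glycolipids, were not called and had 11 to 29 counts in the shHMGA2 libraries.

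Other genes of lipase biology were mixed, with some called higher in both lines and a small median change over the list. Of the 8 tested genes in a list of triglyceride lipases and their partners, LPL left out, ANGPTL4, LIPG and LMF1 rose in both lines against shNC. Among all genes tested, 4.89% were called higher in shHMGA2-1 and 11.7% in shHMGA2-2, and 3.59% and 9.65% were called lower. The median log2 fold change of the 8 genes was 0.08 in shHMGA2-1 and 0.04 in shHMGA2-2. LIPA (-0.73) and PNPLA2 (-0.31) were lower in shHMGA2-2, by less than 2-fold. ANGPTL4, a secreted inhibitor of LPL, had 20 and 17 counts in shNC, against 231 and 172 in shHMGA2-1 and 189 and 194 in shHMGA2-2 (log2 fold changes 3.36 and 3.28). LMF1, which LPL needs for folding, rose by 1.39 and 1.17, and LIPG, endothelial lipase, by 1.50 and 1.21. With DESeq2 the count in each line was 1, so LIPG and LMF1 were called by edgeR only. The capillary anchor of LPL, GPIHBP1, was at 0 in every library. Of 10 adipocyte markers, 6 had at most 3 counts everywhere, ADIPOQ among them at 0. Of the 4 tested, PPARG fell in both lines, and PLIN1 fell in shHMGA2-2 by edgeR but not by DESeq2. Muscle markers gave no call in either line among 3 tested (0 and 2 at an unadjusted p under 0.05 in shHMGA2-1 and shHMGA2-2, and 0 by DESeq2).

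The ubiquitin and protein modification group had 6 members, of which FBXO2 and FBXO6 were higher in shHMGA2-2, against 44.8% of all members. Both are F-box proteins that recognise N-glycans on misfolded glycoproteins, and FBXO2 is best known from brain. FBXO2 had 0 and 1 counts in shNC, compared with 11 and 11 in shHMGA2-1 and 63 and 68 in shHMGA2-2, a difference of 2.56 ± 0.37 SE. FBXO6 had 3 and 2 counts in shNC, against 15 and 17 in shHMGA2-1 and 46 and 60 in shHMGA2-2, a difference of 1.72 ± 0.36 SE. USP2 and USP51, which remove ubiquitin, had 12 to 20 and 24 to 36 counts over the shHMGA2 libraries. ZDHHC11B, a palmitoyltransferase, had 1 and 2 counts in shNC, against 19 and 15 in shHMGA2-1 and 28 and 31 in shHMGA2-2. LONRF2, a RING-type ubiquitin ligase of neurons with a LON domain, was at 0 in shNC and had 52 to 96 counts over the shHMGA2 libraries, with a log2 fold change of 0.56 that was not called.

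The last coding genes are less well known or bind RNA. FAM117A had 3 and 3 counts in shNC, compared with 105 and 104 in shHMGA2-1 and 32 and 33 in shHMGA2-2. It was the only member called higher in shHMGA2-1 (log2 fold change -1.68 ± 0.25 SE, edgeR adjusted p = 4.36e-06). CCDC74B rose by 2.44 from shHMGA2-1 to shHMGA2-2. Its near-identical copy CCDC74A had 11 and 3 counts in shNC, against 27 and 24 in shHMGA2-1 and 302 and 234 in shHMGA2-2, so reads could have been split between the copies in ways not known here. PCBP3, a poly(C)-binding protein, had 10 to 25 counts over the shHMGA2 libraries and TMEM121, a membrane protein, 25 to 50.

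The 7 other members were 3 antisense transcripts, 2 lincRNAs, 1 sense intronic transcript and 1 processed pseudogene. Of them, LINC00654 (1.30) and AHI1-DT (1.50) were higher in shHMGA2-2 on the log2 scale. ACTG1P25 had 3 and 1 counts in shNC, against 19 and 14 in shHMGA2-1 and 12 and 12 in shHMGA2-2. It is a pseudogene of the actin gene ACTG1, which had 39656 to 47032 counts per library. The counts of ACTG1P25 are therefore uncertain. The 51 protein-coding genes made up 87.9% of the members, against 85.1% of the genes with at least 10 counts in each shHMGA2 library, and the median exonic size was 4812 bases against 5111.

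**Figure D3:**
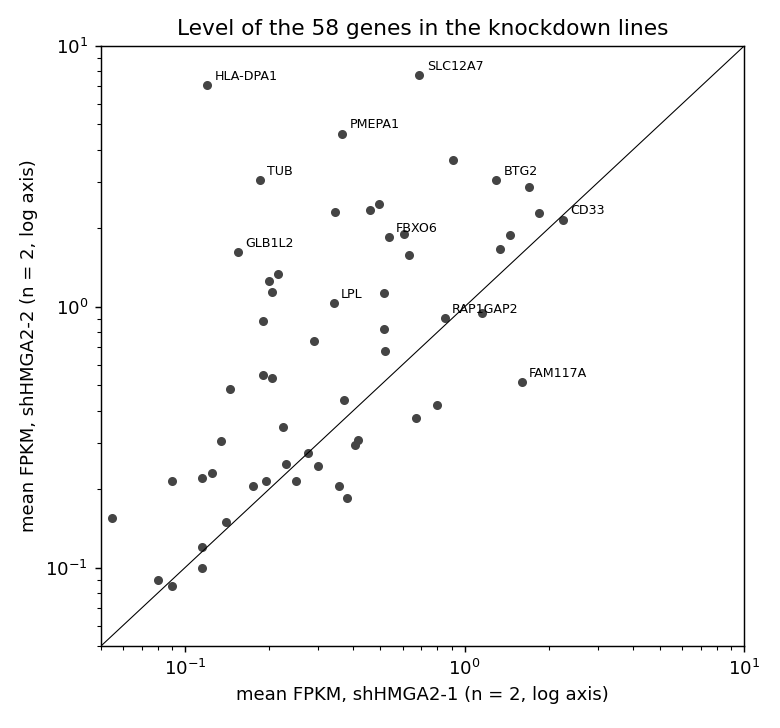
Mean FPKM of each of the 58 genes in shHMGA2-1 (x axis) and shHMGA2-2 (y axis), 2 libraries each, on log axes, with the line of equal levels. HLA-DPA1, SLC12A7, TUB, PMEPA1 and GLB1L2 lie far above the line, CD33 and RAP1GAP2 lie close to it, and FAM117A lies below it.

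By position, the members were spread over most chromosomes. Chromosomes 1, 5, 6, 11 and 19 held 6 each, or 10.3% of the members. These chromosomes held 10.04%, 4.71%, 5.30%, 5.66% and 7.06% of the genes with at least 10 counts in each shHMGA2 library. No member lay on chromosomes 4, 13, 15 and 18, which held 3.57%, 1.69%, 3.18% and 1.43% of those genes. Chromosome 12, which holds HMGA2, had no member either and held 5.31%. The differences between these shares were not tested. There were 6 pairs of members within 1 Mb of each other, formed by 11 genes. The closest were FBXO2 at chr1:11637018-11655785 and FBXO6 at chr1:11664200-11674354, 8414 bases apart. PCDHAC2 and PCDHB2, in the protocadherin clusters of chromosome 5, lay 82258 bases apart with no expressed gene between them, and NRG2 lay 923170 bases from PCDHAC2. Also on chromosome 5, ZDHHC11B and SLC12A7 lay 265654 bases apart.

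Within these pairs the genes did not all keep the same pattern between the knockdown lines. FBXO2 and FBXO6 were both higher in shHMGA2-2. FBXO44, which lies between them and overlaps FBXO2 on the other strand, had 58 and 39 counts in shNC, compared with 105 and 124 in shHMGA2-1 and 201 and 273 in shHMGA2-2, in the same order as its neighbours. SLC12A7 was higher in shHMGA2-2 and ZDHHC11B was not called, and ZDHHC11, a close copy of ZDHHC11B between them, fell in shHMGA2-2 (303 and 272 counts in shHMGA2-1 against 115 and 151). The other pairs were CAMSAP3 with CERS4 on chromosome 19, 588431 bases apart with 14 expressed genes between them, and ACTG1P25 with BTG2 on chromosome 1, 430249 bases apart with 7 between them.

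Genes next to the members were compared with shNC in the same fit. The nearest tested gene on either side of each member gave 115 genes that the rule did not choose. Of these, 17 (14.8%) were higher in shHMGA2-1 than in shNC, against 4.89% of all genes tested, and 3 were lower, against 3.59%. In shHMGA2-2, 31 (27.0%) were higher, against 11.7%, and 5 were lower, against 9.65%. Both comparisons use the same shNC libraries. Without shNC replicate 2, the 17 genes higher in shHMGA2-1 became 11.

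There were 15 neighbours that were higher than shNC in both lines. MPZL3, a paralog of MPZL2 that lies 1051 bases from it, had 9 and 0 counts in shNC, against 24 and 24 in shHMGA2-1 and 83 and 78 in shHMGA2-2. GNG7, a G protein gamma subunit next to DIRAS1, had 5 and 5 counts in shNC, against 50 and 69 in shHMGA2-1 and 93 and 102 in shHMGA2-2. PCDHAC1, which shares its downstream exons with PCDHAC2, had 0 and 0 counts in shNC, compared with 23 and 27 in shHMGA2-1 and 9 and 9 in shHMGA2-2, and so missed the lower limit by 1 count.

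Others of these neighbours had been readily detected in shNC. MAGEH1, a MAGE-family gene next to USP51 on chromosome X, had 23 and 14 counts in shNC, against 149 and 158 in shHMGA2-1 and 175 and 136 in shHMGA2-2. PDE7B, a cAMP phosphodiesterase next to AHI1-DT, had 37 and 53 counts in shNC, against 182 and 176 in shHMGA2-1 and 450 and 505 in shHMGA2-2. COL11A2, a cartilage collagen next to HLA-DPA1, had 13 and 13 counts in shNC, compared with 26 and 33 in shHMGA2-1 and 331 and 356 in shHMGA2-2. For PDE7B and COL11A2 the order of the lines was the same as for AHI1-DT and HLA-DPA1.

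For 17 members another tested gene overlapped the same stretch of chromosome, in 3 cases on the same strand. Whether strand was used in counting is not given in the sources used here, so reads of overlapping genes may have been exchanged. KAT7, which overlaps FAM117A, had 1233 to 1604 counts per library, and C7orf50, which overlaps GPER1, had 476 to 763. MAD2L2, which overlaps FBXO6, had 394 and 393 counts in shNC, against 602 and 579 in shHMGA2-1 and 785 and 828 in shHMGA2-2, in the same order as FBXO6. The other 41 members overlapped no tested gene, among them SLC12A7, CD33, PMEPA1, TUB and RAP1GAP2.

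Among the GO terms for location in the deposited table, the plasma membrane was listed for the most members. Of 49 members with a term for location, 21 (42.9%) were listed at the plasma membrane, against 19.3% of the expressed genes with such a term, where expressed means at least 10 counts in each shHMGA2 library. The separate term for the cell surface was listed for only 4: CD33, LRFN1, TSPAN33 and HLA-DPA1 (8.16% against 2.63%). The broad term membrane was also listed for 4 (8.16%), a smaller share than among the expressed genes. The nucleus was listed for 7 (14.3% against 37.9%) and the cytosol for 12 (24.5% against 38.0%). The extracellular region was listed for 8 (16.3% against 6.14%), among them LPL, NRG2 and EFEMP2. The 4 members listed for GTP binding were SEPTIN3, SEPTIN5, GNAZ and DIRAS1. FBXO2, FBXO6 and MAN1C1 were listed for ubiquitin-dependent breakdown of proteins of the endoplasmic reticulum (6.52% of members with a process term, against 0.661%). These shares are a description without a test.

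RefSeq promoter windows of 250 bases before and 50 after the start (GRCh38.p14) were matched for 42 members by Ensembl identifier, or else by symbol. The RefSeq start can differ from the gene start in the deposited table. For the minus-strand genes SRGAP3 and FAM117A, among others, the 250 bases lay at chr3:9249647-9249896 and chr17:49764132-49764381, inside genes that start at 9363053 and 49789180. For RAP1GAP2, on the plus strand, they lay at chr17:2776508-2776757, inside a gene that starts at 2755705. The median C+G content of the 42 windows was 67.2%, against 65.3% for the expressed genes and 58.3% for all RefSeq promoters. The ratio of observed to expected CpG had a median of 0.760, against 0.846 and 0.580. Windows with a ratio above 0.6 and over 50% C+G were 29 of the 42 (69.0%), against 81.8% of the expressed genes and 46.8% of all. The sequence TATAAA was found on either strand in 1 window (2.38%, against 5.20% of the expressed genes and 11.95% of all) and CCAAT in 12 (28.6%, against 37.0% and 35.7%). AATATT, a letter run picked for the AT-rich preference of HMGA2, was found in 0 windows, against 2.61% of the expressed genes and 7.23% of all.

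The 250 bases before the start are shown for 5 members that span this range, written 5′ to 3′ in the direction of the gene with each CpG in capitals. CD33 (chr19:51224830-51225079, plus strand) has the fewest CpG of the 42, with 2, and PMEPA1 (chr20:57711473-57711722, minus strand) has 6. SLC12A7 (chr5:1112064-1112313, minus strand) has 28 and TUB (chr11:8018995-8019244, plus strand) has 32. MAN1C1 (chr1:25616541-25616790, plus strand) has the most, with 47.
CD33: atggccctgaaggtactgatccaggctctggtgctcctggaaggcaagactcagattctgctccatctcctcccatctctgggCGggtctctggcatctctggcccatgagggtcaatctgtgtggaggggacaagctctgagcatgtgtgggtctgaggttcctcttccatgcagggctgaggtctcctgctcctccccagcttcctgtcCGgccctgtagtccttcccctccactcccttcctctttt
PMEPA1: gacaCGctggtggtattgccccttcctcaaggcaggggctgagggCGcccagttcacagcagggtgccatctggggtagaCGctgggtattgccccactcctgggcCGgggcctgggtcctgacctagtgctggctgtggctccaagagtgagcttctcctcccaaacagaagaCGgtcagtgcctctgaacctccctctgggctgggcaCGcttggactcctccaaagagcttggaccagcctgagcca
SLC12A7: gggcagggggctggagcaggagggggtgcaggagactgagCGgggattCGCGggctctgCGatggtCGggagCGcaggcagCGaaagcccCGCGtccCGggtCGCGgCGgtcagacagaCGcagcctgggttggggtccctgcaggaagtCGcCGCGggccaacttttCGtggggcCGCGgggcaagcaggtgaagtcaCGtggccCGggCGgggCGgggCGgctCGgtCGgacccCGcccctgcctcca
TUB: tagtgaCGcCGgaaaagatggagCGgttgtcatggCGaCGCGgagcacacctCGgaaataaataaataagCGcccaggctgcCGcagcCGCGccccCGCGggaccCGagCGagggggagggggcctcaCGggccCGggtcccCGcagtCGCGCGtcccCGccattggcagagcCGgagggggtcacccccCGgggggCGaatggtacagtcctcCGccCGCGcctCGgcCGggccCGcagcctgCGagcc
MAN1C1: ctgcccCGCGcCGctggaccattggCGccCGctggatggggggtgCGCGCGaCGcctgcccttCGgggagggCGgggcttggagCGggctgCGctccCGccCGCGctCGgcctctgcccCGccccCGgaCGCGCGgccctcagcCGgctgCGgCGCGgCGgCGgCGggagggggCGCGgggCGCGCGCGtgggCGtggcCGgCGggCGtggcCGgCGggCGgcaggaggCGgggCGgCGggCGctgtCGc

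CpG-poor and CpG-rich starts were therefore both present, also among the members with similar patterns. PMEPA1 and SLC12A7, with 6 and 28 CpG, rose by 3.59 and 3.43 from shHMGA2-1 to shHMGA2-2 on the log2 scale. CD33 and RAP1GAP2, whose intervals between the knockdown lines lay inside a 2-fold difference, had 2 and 40. The RAP1GAP2 window lies inside the gene, and which start its reads came from is not known here.

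Relatives of the members were read from gene lists, in each line against shNC. Among all genes tested, 4.89% were called higher and 3.59% lower in shHMGA2-1, and 11.7% and 9.65% in shHMGA2-2. The same shares stand beside the lists that follow. Of 9 other septins tested, none was called in shHMGA2-1 (5 at an unadjusted p under 0.05, and 0 by DESeq2), and SEPTIN4 rose in shHMGA2-2 from 0 and 6 counts to 17 and 17, by edgeR but not by DESeq2. Of 12 other Rap1 regulators, SIPA1L2 rose and SIPA1L3 fell in shHMGA2-1. In shHMGA2-2, RAP1GAP, the closest relative of RAP1GAP2, rose from 2 and 6 counts to 29 and 39, while SIPA1, SIPA1L3, RAPGEF2, RAPGEF3 and RAPGEF5 fell. The 4 relatives of LONRF2 gave no call in either line (1 and 3 at an unadjusted p under 0.05 in shHMGA2-1 and shHMGA2-2, and 0 by DESeq2).

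Classes of genes with known control by DNA methylation were read in the same way. Of 25 cancer-testis genes, 21 had at most 3 counts in every library. Of the 2 tested, XAGE1B rose in shHMGA2-2 by edgeR only, and shHMGA2-1 gave no call (0 at an unadjusted p under 0.05, and 0 by DESeq2). Among 8 imprinted genes tested, IGF2 had 0 and 0 counts in shNC, against 8 and 6 in shHMGA2-1 and 41 and 51 in shHMGA2-2 and rose in both lines. MEST and CDKN1C rose in shHMGA2-2, and PHLDA2 fell in both lines. Of 11 DNA methylation enzymes and readers tested, DNMT3B fell by 1.28 in shHMGA2-2, and none was called in shHMGA2-1 (7 at an unadjusted p under 0.05, and 0 by DESeq2).

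Genes chosen as markers of MDA-MB-231 were read in the same way, which does not test the identity of the line. All 6 were expressed in every line, VIM at 35046 to 38106 counts. EGFR and MSN fell in shHMGA2-2, and no marker of the 6 was called in shHMGA2-1 (5 at an unadjusted p under 0.05, and 0 by DESeq2). The oestrogen and progesterone receptor genes ESR1 and PGR had at most 12 and 2 counts. ERBB2, the third of the receptors that define triple-negative tumours, was not called in either line (1 of 1 at an unadjusted p under 0.05 in each, and 0 by DESeq2). Of 3 endothelial markers tested, PECAM1 fell in both lines by edgeR, and DESeq2 called 0 of them in either line, giving no adjusted p for PECAM1 in shHMGA2-1.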

How the data were processed

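RNA-seq libraries of MDA-MB-231 cells, 2 each of shNC, shHMGA2-1 and shHMGA2-2, were read from the single table that the authors deposited, with groups taken from the sample titles. Per gene and library the table holds a raw count and an FPKM value, which the authors computed from the deposited counts, exonic size and library total. The submitters' processing notes name HISAT2 (2.2.1), HTSeq (0.6.1) and GRCh38.p13. The strand setting is not given in the sources used here.

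The members were found by their counts, with 3 as the upper limit in shNC and 10 as the lower limit in shHMGA2. They, the gene lists and the role groups were chosen with earlier results of these data known. All genes were fitted with edgeR (4.0.16) in R (4.3.3), using TMM scaling (factors 0.958 to 1.05), filterByExpr by group, a model of 3 groups and quasi-likelihood tests whose p-values were adjusted by Benjamini-Hochberg over all 16110 genes that passed the filter. A call needs an adjusted p under 0.05 and at least a 2-fold difference. The study's methods name DESeq2 for differential expression, and DESeq2 (1.42.0) was run as an alternative. The fit was tested on simulated data. Ratios to shNC use summed counts scaled to the library totals, as CPM, with an exact 95% counting interval, or a floor of 3 counts per library where both shNC libraries are at 0. At the depth of these libraries, 3 counts are 0.175 to 0.182 CPM.

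Values per library were planned for the 12 members with the highest CPM, the 6 with the largest change each way between the knockdown lines (only 1 was called lower), members within 1 Mb of another, and genes at the limits. Other members with such values were named after their values were seen. Alternatives were other limits, other scalings, no filter, a replicate block, leaving out each library, and a fit of the 4 shHMGA2 libraries alone. Neighbouring genes under all alternatives, and a block with crossed numbers, were added after seeing the data. Sample columns left unused numbered 0. For 20417 of the 61806 genes the table gives an identifier in place of a symbol.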

Additional observations from a re-analysis of the deposited data

Results flagged for a closer look

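The responses of the knockdown lines differed, by the test of shHMGA2-2 against shHMGA2-1, for 14 of the members given in full. HLA-DPA1 had a log2 fold change of 5.79, TUB of 4.0, PMEPA1 of 3.59, SLC12A7 of 3.43 and GLB1L2 of 3.31. CERS4 followed with 2.68, FBXO2 with 2.56, MPZL2 with 2.29, DMKN with 2.26, FBXO6 with 1.72 and CAMSAP3 with 1.61. CCDC40 (1.21) and BTG2 (1.18) had the smallest rises, and FAM117A, at -1.68, was the only one of them higher in shHMGA2-1. HMGA2 had fewer counts in shHMGA2-2 (435 and 482) than in shHMGA2-1 (858 and 989). Each line has its own shRNA, so the shRNA and the line cannot be told apart.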

How the results depend on the processing

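The number of genes that met the limits depended on them: it was 58 as reported, 9, 29 and 111 with an upper limit of 0, 1 and 5 counts in shNC, and 202 and 24 with a lower limit of 5 and 20 in the shHMGA2 libraries. Leaving out a library gave 64 to 111, with 105 without shNC replicate 1 and 111 without shNC replicate 2. Leaving one out removes a condition, so this number could not fall. Members higher in shHMGA2-2 than in shHMGA2-1 numbered 22 to 26 under all alternatives. Members lower numbered 2 with only the 4 shHMGA2 libraries and 1 to 3 when a library was left out. For the gene lists, the family genes higher numbered 3 (shHMGA2-1) and 5 (shHMGA2-2) with DESeq2 in place of 5 and 9, and the family genes lower in shHMGA2-1 numbered 1 to 3 when a library was left out in place of 2. Cell type markers higher in shHMGA2-1 numbered 2 with upper quartile scaling and 1 to 2 when a library was left out, in place of 1. Neighbours higher in shHMGA2-1 numbered 11 to 16 when a library was left out, and neighbours lower in shHMGA2-2 numbered 3 with upper quartile scaling in place of 5. The causes were not tested.

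The replicate numbers are shared between lines, but nothing states that a number marks a shared batch, and the deviations of same-numbered libraries had correlations of -0.02, 0.00 and -0.10. With the replicate block, members higher numbered 26 and lower 1, and neighbours higher in shHMGA2-2 numbered 30. With the shHMGA2-2 numbers crossed, members lower numbered 2.

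For the 25 members given in full, 306 of 325 log2 fold changes between the knockdown lines kept their direction and call. CCDC40 lost its call 4 times, and NRG2 gained one without shHMGA2-2 replicate 2. The 14 reversed values belonged to genes that were not called. When a library was left out, the value of CD33 ran from -0.26 to 0.017, that of RAP1GAP2 ran from -0.041 to 0.11, that of PCDHB2 ran from -0.95 to 0.25, that of LINC02990 ran from -0.30 to 0.65, that of PCDHAC2 ran from -0.21 to 0.11 and that of SEPTIN5 from -0.14 to 0.15. SEPTIN5 was 0.0065 with RLE scaling, 0.048 with upper quartile scaling, 0.00045 with the crossed block and 0.0043 with the 4 shHMGA2 libraries. With 2 libraries per line, only 9 of the 31 members not called had an interval inside a 2-fold difference.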
